A study of Nannochloropsis gaditana with 4 samples.

Results

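Transcripts of 4 fatty acid genes were followed in the single-celled marine alga *Nannochloropsis gaditana*, out of 44 genes measured in all. They were taken by their symbols in the authors' tables. O6FADes1 is given there as an omega 6 fatty acid desaturase and D6S as a delta 6 saturase, read here as a desaturase. LCS1 and LCS2 are both given as long-chain acyl-CoA synthetases. Cells of strain CCAP 849/5 were grown for 13 days in CO2-enriched batch flasks, either under continuous light (CL) or under flashes delivered 5, 50 or 500 times per second (Hz), the light being on for a share of 0.05 of the time. Averaged over time, all cultures received 300 µmol photons s-1 m-2, and a flash reached 6000 µmol photons s-1 m-2. Each light regime was 1 sample with 3 numbered repeats per gene, from RNA that was pooled before measurement according to the design text.

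Desaturases place double bonds in fatty acyl chains. An omega 6 desaturase turns oleic into linoleic acid, and a delta 6 desaturase acts on linoleic acid at the start of the route to arachidonic and eicosapentaenoic acid, the long polyunsaturated acid for which *Nannochloropsis* is cultivated. Long-chain acyl-CoA synthetases join free fatty acids to coenzyme A with the energy of ATP, which readies them for glycerolipid assembly, elongation or breakdown. The comparison of light regimes therefore asks whether transcripts for unsaturation and for acyl activation differ when the same mean light comes in flashes.

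Quantities were obtained by real-time PCR with SYBR Green. Each is a linear ratio to the highest of a gene's 12 values, divided by the signal of the reference genes CYP and PAP1, so levels can be compared between samples for 1 gene and never between genes. PAP1 is given as a phosphatidic acid phosphatase, an enzyme of glycerolipid assembly, and was left out of the glycerolipid list below. Sample 1 is the continuous-light sample. Samples 2, 3 and 4 are the 3 flashing-light samples, and no header ties them to a frequency, so nothing here is ordered by frequency. Each value is an average over the cells behind pooled RNA, in which fewer expressing cells and less RNA per cell cannot be told apart. Errors are SDs over 3 repeats or, for a log2 change, the square root of the sum of both samples' squared SDs (propagated SD). The RNA was pooled and the sources used here do not say what a repeat was, so the SD may be technical only. Nor do they say whether repeats of the same number belong together across samples, so matches by number are descriptions and not paired evidence. With 1 sample per regime no test between regimes was possible. The absolute threshold cycles are unknown.

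None of the 4 genes differed from continuous light, in any flashing-light sample, by the rule of size applied to all genes, which asks for at least 2-fold and more than 2 propagated SDs. The same rule was met by 11.4% of all 44 genes in sample 2, by 2.27% in sample 3 and by 0% in sample 4. The widest differences from continuous light were D6S in sample 3, at 0.601-fold, and LCS2 in sample 2, at 1.35-fold. Even without the condition of 2-fold, no member's change exceeded 2 propagated SDs.

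**Figure D1:**
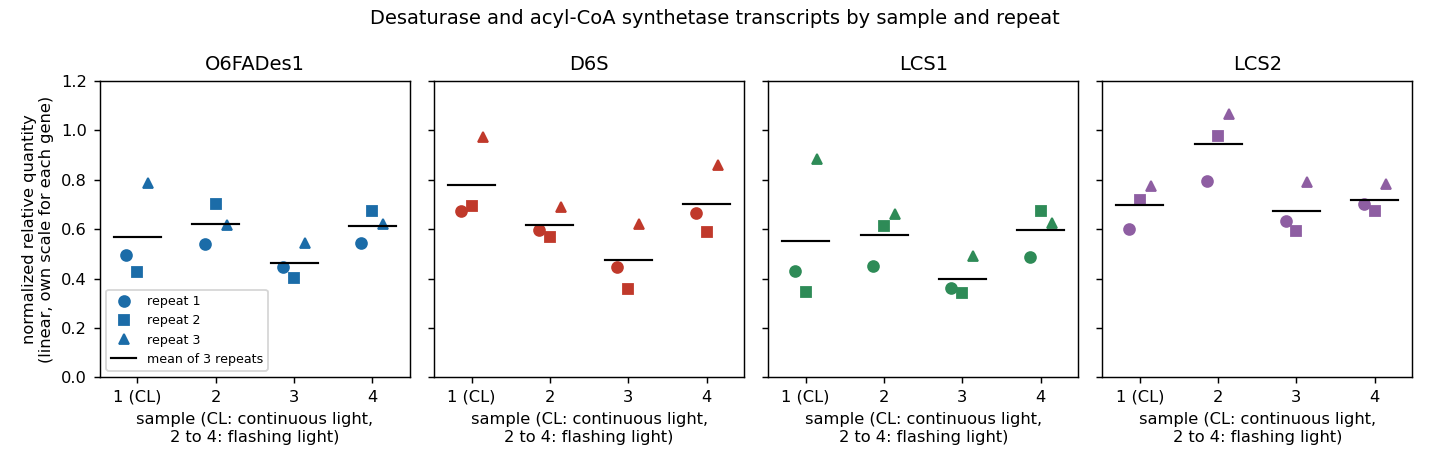
Normalized relative quantity (linear, scaled separately for each gene) of the 4 genes in the continuous-light sample (1) and the 3 flashing-light samples (2 to 4), with 1 symbol per repeat and a line at the mean of 3 repeats. D6S in sample 3 lies wholly below sample 1 and LCS2 in sample 2 wholly above it, while repeat 3 of sample 1 stands high for O6FADes1, LCS1 and D6S.

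The omega 6 desaturase O6FADes1 had normalized quantities of 0.494, 0.425 and 0.786 in the repeats of continuous light. Its values were 0.538, 0.702 and 0.618 in sample 2, then 0.446, 0.401 and 0.544 in sample 3, and 0.543, 0.673 and 0.623 in sample 4. The control repeats spanned 1.85-fold and enclosed or overlapped every flashing-light sample. The means were 0.569 ± 0.192 (SD, n = 3) in continuous light, 0.619 ± 0.0816 (SD, n = 3) in sample 2, 0.464 ± 0.0732 (SD, n = 3) in sample 3 and 0.613 ± 0.0658 (SD, n = 3) in sample 4. On the log2 scale, the changes against continuous light were 0.17 ± 0.50, −0.25 ± 0.51 and 0.15 ± 0.49, each well within its error.

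The delta 6 gene D6S, whose product acts next on linoleic acid, was highest in continuous light. There its normalized quantities were 0.672, 0.693 and 0.975. They were 0.596, 0.567 and 0.689 in sample 2, so that only the highest repeat of sample 2 reached into the control range. In sample 3 they were 0.446, 0.356 and 0.620, all under the lowest control repeat. In sample 4 they were 0.664, 0.588 and 0.860 and overlapped the control.

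The mean D6S quantity was 0.780 ± 0.169 (SD, n = 3) in continuous light and 0.474 ± 0.134 (SD, n = 3) in sample 3, a log2 change of −0.73 ± 0.50. Among the 36 target genes (those not used or marked as references) only nitrate reductase NR, at −1.15, had a lower value in that comparison. The change in sample 2 was −0.32 ± 0.33 and in sample 4 −0.15 ± 0.41. Matched by repeat number, a pairing that may be arbitrary, D6S lay below continuous light in all 3 flashing-light samples. In sample 4 the gap was as little as 0.664 against 0.672 in repeat 1. D6S was 1 of 3 genes, or 6.82% of the 44, whose repeats in sample 3 did not overlap those of continuous light, and the other two, NR and DGAT3, were also lower.

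The acyl-CoA synthetase LCS1 had the widest control spread of the members. Its normalized quantities in continuous light were 0.431, 0.344 and 0.885, a 2.57-fold span within 1 sample. The values were 0.450, 0.611 and 0.662 in sample 2, then 0.364, 0.343 and 0.492 in sample 3, and 0.487, 0.673 and 0.627 in sample 4. All 9 flashing-light values but the lowest of sample 3 fell inside the control range. Log2 changes against continuous light were 0.16 ± 0.77, −0.36 ± 0.76 and 0.22 ± 0.75, so that even the largest was under 1 propagated SD.

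LCS2, the second synthetase, was the most precisely measured member. Its quantities were 0.600, 0.718 and 0.776 in continuous light and 0.793, 0.975 and 1.07 in sample 2, where every repeat lay above every control repeat. They were 0.634, 0.592 and 0.790 in sample 3 and 0.703, 0.673 and 0.784 in sample 4, both across the control range. Means were 0.698 ± 0.0894 (SD, n = 3) in continuous light and 0.945 ± 0.139 (SD, n = 3) in sample 2, a log2 change of 0.43 ± 0.29. The changes in samples 3 and 4 were −0.06 ± 0.29 and 0.05 ± 0.22.

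The separation of LCS2 in sample 2 was of a common kind, since 54.5% of the 44 genes had repeats there that did not overlap those of continuous light. In sample 4 none of the 4 members was separated from the control, against 15.9% of all genes. LCS2 ranked 12 of 36 targets from the highest change in sample 2. By range of the 4 sample means, D6S varied by 0.73 on the log2 scale, LCS1 by 0.58, LCS2 by 0.49 and O6FADes1 by 0.42. The median range of the 36 targets was 0.63, so D6S alone of the members lay above it, at rank 13.

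**Figure D2:**
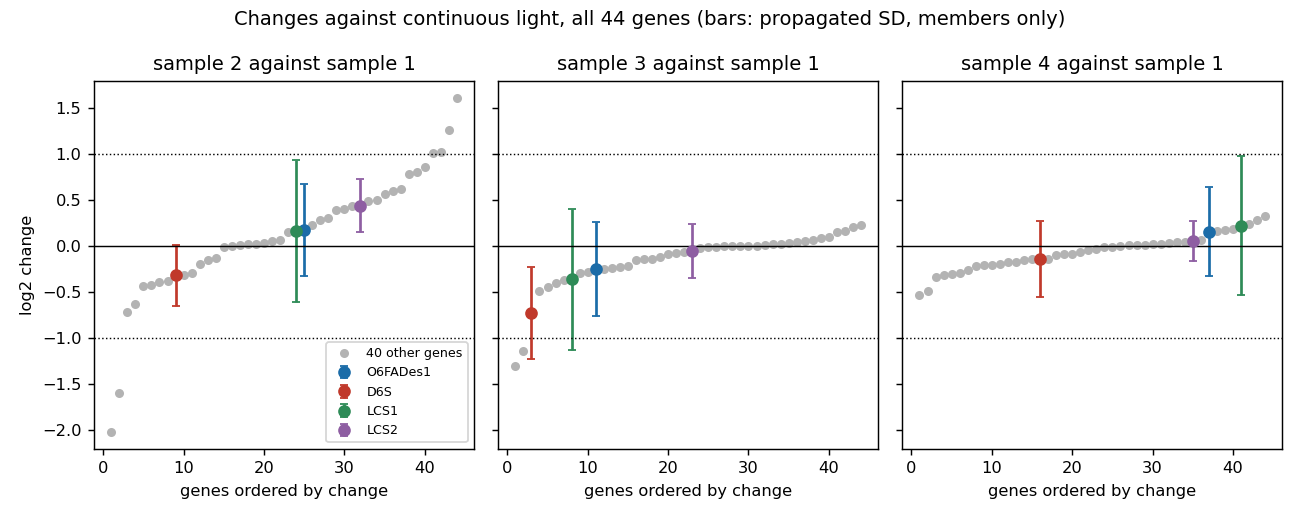
Log2 change against continuous light for all 44 genes in each flashing-light sample, ordered by size, with the 4 members coloured and drawn with their propagated SD. Dotted lines mark 2-fold. The members sit in the body of the distribution in sample 2, D6S is near the lower end in sample 3, and LCS1 is near the upper end in sample 4, where it ranks 3 from the highest of 36 targets.

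Set against each other, the flashing-light samples placed all 4 genes lowest in sample 3. Against sample 2, the log2 changes in sample 3 were −0.42 ± 0.29 for O6FADes1, −0.41 ± 0.43 for D6S, −0.52 ± 0.41 for LCS1 and −0.49 ± 0.31 for LCS2. All 4 were lower in each of the 3 repeats when matched by number. The repeats of LCS2 did not overlap, though only by 0.790 against 0.793, and 45.5% of all genes were separated in this comparison. The median member was at −0.46 and the median of the 36 targets at −0.32, so a lower value in sample 3 was common. With the ubiquitin family gene UFP alone as reference all 4 were higher in sample 3, by 0.04 to 0.15, and centred on the median target O6FADes1 and D6S were level with sample 2 at 0.00. None of the members met the rule of size here, which 9.09% of genes did.

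Between samples 4 and 3, the desaturases and LCS1 were higher in sample 4. D6S stood at 0.59 ± 0.49, LCS1 at 0.58 ± 0.37, O6FADes1 at 0.41 ± 0.27 and LCS2 at 0.11 ± 0.25. The first 3 were higher in 3 of 3 repeats by number, but their ranges overlapped. For O6FADes1 the overlap was 0.543 in sample 4 against 0.544 in sample 3. In this comparison 38.6% of genes were separated and 0% met the rule of size. The median of the 36 targets was −0.01. Among the 36 targets, D6S, LCS1 and O6FADes1 ranked 3, 4 and 7 from the highest. The highest was the ketoacyl-CoA synthase KAS, at 0.64, so the rise was not particular to the members. The 8 genes listed below for fatty acid synthesis had a median of 0.38, beside 0.49 for the 4 members and −0.18 for the glycerolipid list. Over 11 other choices of reference these 3 were lower in sample 4 only with the beta tubulin gene BT alone, and LCS2 was lower in 6.

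Between samples 4 and 2 the members divided. LCS2 was lower in sample 4 at −0.38 ± 0.25 with separated repeats, whereas O6FADes1 at −0.01 ± 0.25, LCS1 at 0.06 ± 0.38 and D6S at 0.18 ± 0.32 were level within error. The background was high, with 65.9% of genes separated and 18.2% meeting the rule of size. The median of the 36 targets was −0.23, and LCS2 ranked 17 of 36 from the lowest. Centred on the median target, LCS2 stood at −0.10, and O6FADes1, LCS1 and D6S at 0.28, 0.35 and 0.46. Over the 11 other choices of reference, LCS2 changed sign in 1, O6FADes1 and D6S in 4 each and LCS1 in 5.

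The comparisons with sample 1 share its 3 repeats, and repeat 3 of that sample weighed on them. All 4 members were highest in repeat 3 of continuous light, as were 52.3% of the 44 genes, and all 4 were highest in repeat 3 of sample 3, as were 77.3%. Repeat 3 was also the most often highest in samples 2 and 4, for 45.5% and 61.4% of genes and for 3 and 2 members. Leaving it out of the control alone therefore raises every member's change. With control repeat 3 alone left out, an alternative chosen after the values were seen, LCS1 moved to 0.56 ± 0.37 in sample 2, 0.04 ± 0.36 in sample 3 and 0.62 ± 0.34 in sample 4. O6FADes1 moved to 0.43 ± 0.24, 0.01 ± 0.27 and 0.41 ± 0.22. Against the full control, both genes were lower in sample 3 in 3 of 3 repeats matched by number, and with repeat 3 left out of both samples O6FADes1 stood at −0.12 and LCS1 at −0.12. With repeat 3 left out of both samples in the same way, LCS1 stood at 0.45 in sample 2 and 0.57 in sample 4, and O6FADes1 at 0.42 and 0.40. Without control repeat 3 alone, D6S in sample 3 stayed lower at −0.56 ± 0.40, while D6S in sample 4 came to 0.03 ± 0.28. LCS2 in sample 2 came to 0.51 ± 0.28, and to 0.42 with repeat 3 left out of both samples.

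Precision differed between the members. The SD between repeats, pooled over the 4 samples on the log2 scale, was 0.43 for LCS1, which ranked 2 of 44 genes from the largest. It was 0.30 for D6S, 0.28 for O6FADes1 and 0.19 for LCS2, beside a median of 0.20 over all genes. LCS1 and O6FADes1 owed most of this to continuous light, where their log2 SDs were 0.71 and 0.46, against at most 0.29 and 0.22 in the flashing-light samples. D6S had its widest spread in sample 3, at 0.40.

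The reference signal itself varied between repeats. The normalization factor ran from 0.757 to 1.49 within sample 4, a 1.96-fold span, and by no more than 1.27-fold within any other sample. Before normalization, O6FADes1 in sample 4 stood at 0.637, 1.000 and 0.472, and 3 of the 4 members had their highest value in repeat 2 of that sample. Division by the factor drew these repeats together to the values given above. For D6S it did not narrow the spread over the 4 samples, with a pooled log2 SD of 0.29 before and 0.30 after.

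O6FADes1 and LCS1 deviated together from repeat to repeat. Over the 12 values, taken as log2 deviations from each sample's mean, they correlated at 0.97, the highest coefficient of the 630 pairs of target genes, whose median was 0.30. In the 9 flashing-light values alone the coefficient was 0.90. The other 5 member pairs ran from 0.57 to 0.80. These points share the normalization factor and possibly the same RNA or plate, so the coefficients are descriptions. Without normalization the pair stood at 0.95 and the other 5 member pairs at 0.75 to 0.82. The 630 pairs were not compared without normalization or in the 9 values alone.

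**Figure D3:**
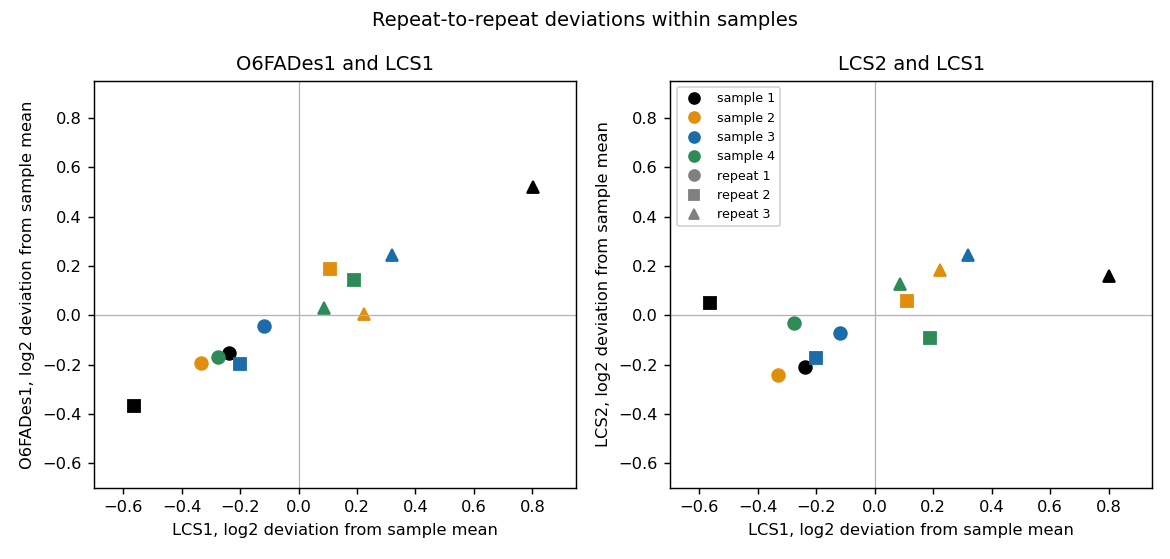
Log2 deviation of each repeat from its sample mean for O6FADes1 against LCS1 (left) and LCS2 against LCS1 (right), with colour for the sample and symbol for the repeat. The 12 points of O6FADes1 and LCS1 lie along a line that reaches furthest in repeats 2 and 3 of continuous light. There LCS2 deviated by 0.05 and 0.16, against −0.56 and 0.80 for LCS1.

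The ratio of 2 genes within a repeat does not depend on the reference genes. Since each gene has its own scale, only the change of a ratio between samples has meaning. The desaturase ratio, O6FADes1 over D6S, was higher than in continuous light by 0.49 ± 0.33 on the log2 scale in sample 2, 0.48 ± 0.27 in sample 3 and 0.30 ± 0.40 in sample 4. In arbitrary units it was 0.734, 0.614 and 0.807 in the control repeats, 0.904, 1.24 and 0.897 in sample 2, and 0.999, 1.13 and 0.878 in sample 3, so those 2 samples lay above the control range. Sample 4, at 0.818, 1.15 and 0.724, overlapped it. Repeats separated from the control were shown by 59.5% of the 630 pairs of target genes in sample 2, by 16.8% in sample 3 and by 13.3% in sample 4. No change of this ratio exceeded 2 propagated SDs.

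The synthetase ratio, LCS1 over LCS2, changed by −0.28 ± 0.63 in sample 2, −0.31 ± 0.63 in sample 3 and 0.17 ± 0.68 in sample 4. Its control values of 0.718, 0.479 and 1.14 enclosed all 9 flashing-light values, which ran from 0.568 to 1.00. The spread lay almost wholly in the control, with a log2 SD of 0.63 there against 0.08 in sample 2, 0.06 in sample 3 and 0.27 in sample 4. Without control repeat 3 the change was 0.04 ± 0.42 in sample 2, 0.01 ± 0.42 in sample 3 and 0.49 ± 0.49 in sample 4. With repeat number 2 left out of all samples it was −0.61 in sample 2, −0.60 in sample 3 and −0.28 in sample 4.

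Of the 6 possible pairs of members, LCS2 over D6S was the only one whose ratio changed by more than 2 propagated SDs with separated repeats, a pair picked out after its values were seen. It was higher than in continuous light by 0.76 ± 0.27 in sample 2, which is 1.69-fold, and by 0.68 ± 0.27 in sample 3, which is 1.60-fold. In sample 4 it was higher by 0.20 ± 0.25. In sample 2 such a change was shown by 43.3% of the 630 target pairs, in sample 3 by 5.24% and in sample 4 by 2.22%. With CYP and PAP1 as reference, LCS2 was higher and D6S lower in sample 2, whereas in sample 3 LCS2 was level with the control and D6S lower. Unlike the ratio, these directions depend on the reference. Over 11 other choices, D6S in sample 2 kept its sign in 9 and LCS2 in sample 3 in 3. Leaving out any 1 repeat number from both samples gave 0.65 to 0.84 in sample 2 and 0.67 to 0.68 in sample 3. With control repeat 3 alone left out, the change was 0.66 ± 0.24 in sample 2 and 0.59 ± 0.25 in sample 3.

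The steadiest pair was O6FADes1 over LCS1. Its log2 ratio had an SD of 0.16 over the 12 values, rank 21 of 630 target pairs from the smallest, beside a median of 0.40. The changes against continuous light were 0.01 ± 0.31, 0.11 ± 0.26 and −0.06 ± 0.27.

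**Figure D4:**
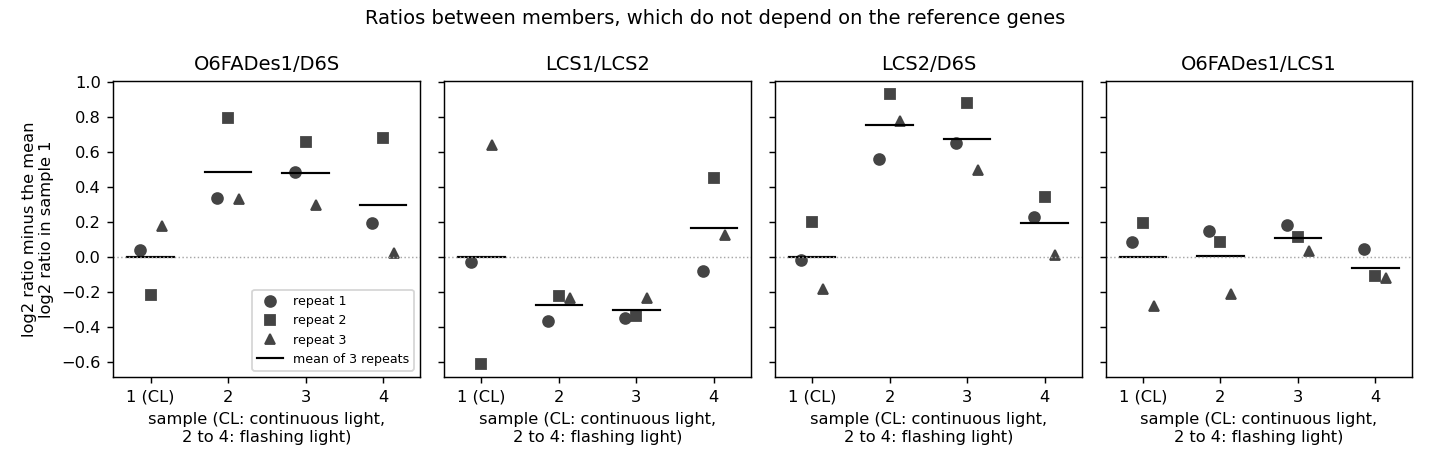
Log2 ratio of 4 pairs of members in each sample and repeat, shown as the difference from the mean of the continuous-light sample (1), with a line at the mean of 3 repeats. LCS2 over D6S lies above the control in samples 2 and 3, LCS1 over LCS2 is widest in the control, and O6FADes1 over LCS1 stays near 0.

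By likeness of change, taken as the root mean square difference of the 3 log2 changes against continuous light, O6FADes1 and LCS1 were each other's nearest targets, at 0.073. The next for both was ENR1, an enoyl-ACP reductase of fatty acid synthesis, at 0.13 from O6FADes1 and 0.15 from LCS1. The third was AGPase2, of the enzyme that makes ADP-glucose, for O6FADes1 and the ketoacyl-CoA synthase KAS for LCS1. LCS2 was nearest to ENR2, ENR1 and the 3-oxoacyl-ACP reductase KAR1, at 0.12 to 0.14. D6S had no gene as near, with KAS at 0.24, the glycerol-3-phosphate dehydrogenase GPD2 at 0.27 and the diacylglycerol acyltransferase DGAT3 at 0.30. These distances share the control repeats and span 3 samples only.

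The other lipid genes were set beside the members as lists, made by the first letters of the gene symbols. The list of fatty acid synthesis therefore also holds KAS, given as a ketoacyl-CoA synthase, and BC, given as a biotin-acetyl-CoA-carboxylase ligase. In sample 2, the median log2 change of the 8 genes of fatty acid synthesis was 0.44, with 1 meeting the rule of size, the dehydratase HAD at 1.02. The 10 genes of glycerolipid assembly had a median of 0.07 with none meeting it, and the 4 members 0.16, beside 0.20 for all 36 targets. In sample 3 the medians were −0.23, 0.00 and −0.31, beside −0.04, with 0 genes meeting the rule in any of the 3 lists. In sample 4 they were 0.11, −0.15 and 0.10, beside −0.08, again with 0. In sample 3 against sample 2, the synthesis list stood at −0.63 with 2 genes lower by the rule, HAD at −1.01 and the malonyl-CoA:ACP transacylase MCT at −1.17, the glycerolipid list at −0.03 and the members at −0.46.

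The choice of reference genes shifted all members alike, and with it most of the small directions. Over 11 other choices, among them the median target as the zero point and no reference at all, D6S in sample 3 was lower than continuous light in 10, from −0.28 to −0.78, the exception being beta tubulin BT at 0.58. LCS2 in sample 2 was higher in 10, from 0.11 to 2.04, the exception being the ubiquitin family gene UFP at −0.17. O6FADes1 and LCS1 in sample 2 were each higher in 8 and lower in 3. LCS2 in sample 3 kept its sign in only 3. BT had the widest repeat SD of all genes, 0.77 on the log2 scale, and its normalized level differed between samples by up to 1.88.

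**Figure D5:**
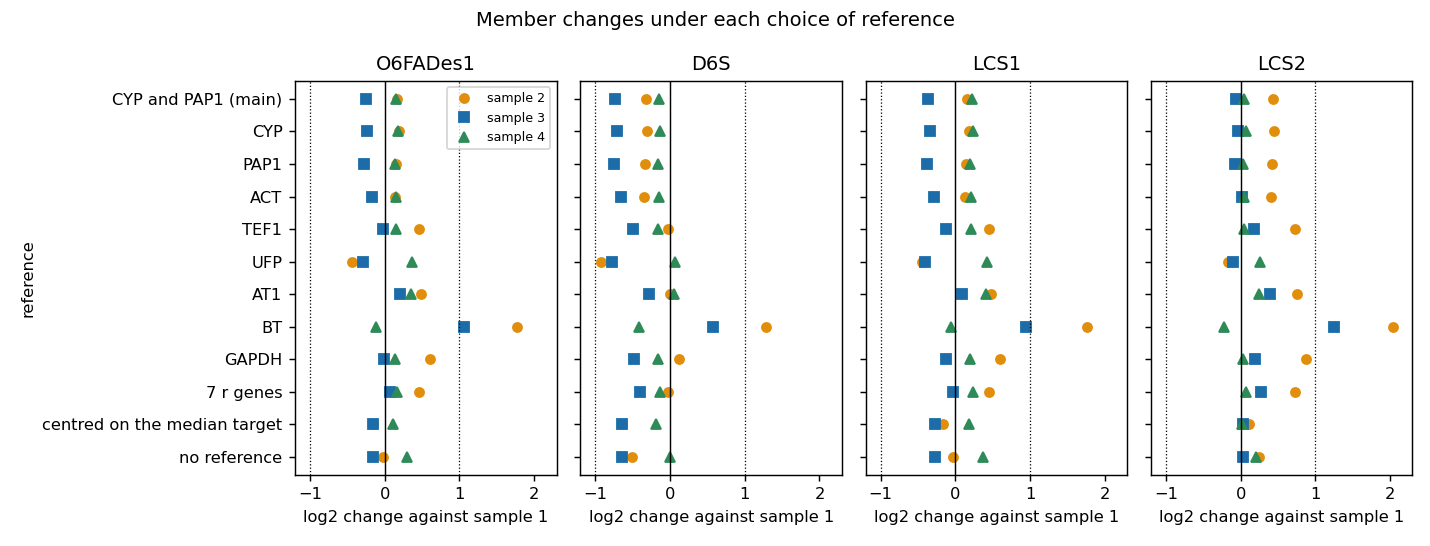
Log2 change of each member against continuous light in samples 2, 3 and 4 under the authors' reference pair and 11 alternatives, with dotted lines at 2-fold. All members shift together with the reference, most with BT, and only with BT do members pass 2-fold.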

How the data were processed

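Relative transcript quantities of *N. gaditana* were measured by SYBR Green real-time PCR in 4 samples, per the labels. The authors deposited 3 tables of linear ratios. Per the file headers these are not normalized, normalized to housekeeping genes, and fold changes of test over control. For all 4 members the normalized value equalled the ratio over the scaled geometric mean of CYP and PAP1 within 0.1%, and all 36 deposited fold values equalled normalized test over sample 1, which identifies sample 1 as the control. The normalized table was the main source, with log2 means over 3 repeats, using Python 3.11.15, numpy 2.4.6 and pandas 2.3.3. MCT was taken as its ratio over the factor, since its deposited row held the factor itself. A member's ratios were whole steps of 0.01 cycle at an amplification base of 2.05 (O6FADes1), 2.04 (D6S and LCS2) or 2.11 (LCS1). All 4 bases exceed 2, which would be perfect doubling, so log2 changes are larger than with a base of 2. Members, lists and comparisons were chosen with earlier results of these data known. By the rule for named genes, all members, the 3 most alike targets of each, list extremes and reference genes could be named. Alternatives were other references, a base of 2, other summaries and sizes, and left-out repeats. No sequences were used here, and locus identifiers are not reported.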

Additional observations from a re-analysis of the deposited data

How the results depend on the processing

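Over 22 alternatives and 6 comparisons, the count of members meeting the rule of size remained 0 in 130 of 132 calculations. The exceptions were with BT alone, which gave 4 members in sample 2 against sample 1 and 4 in sample 4 against sample 2, where 32 and 37 of the 44 genes met it. Of 444 recalculated member changes, 58 moved by more than their propagated SD, each under another reference, and 70 changed sign. With BT alone, D6S met the rule with the sign turned, at 1.28 in sample 2 against sample 1 and −1.71 in sample 4 against sample 2, as did LCS1 at −1.82 in the latter. With a base of 2, D6S in sample 3 stood at −0.71, LCS1 in sample 3 at −0.34 and LCS2 in sample 2 at 0.42. Leaving out 1 repeat number gave −0.81 to −0.62 for D6S in sample 3, 0.42 to 0.45 for LCS2 in sample 2, and −0.18 to 0.45 for LCS1 in sample 2. The desaturase ratio ran from 0.23 to 0.66 in sample 2, from 0.28 to 0.66 in sample 3 and from −0.00029 to 0.53 in sample 4. A replicate block, taking differences within a repeat number, left each count at 0. The causes were not tested. No threshold cycles were used here, so the distance to the detection limit is unknown.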
